A study of Mus musculus with 15 samples.

Results

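The genes described here are 10 genes linked in the gut to secretory cells of the deep crypt and to Paneth cells: Mptx1, Mptx2, Itln1, Ang4, Lyz1, Wfdc2, Reg4, Kit, Cd24a and Hepacam2. They were chosen by name from the 32939 genes of a count table, with earlier results of the same libraries known, and all 10 were found and passed the filter on low counts. The table covered 15 RNA-seq libraries made from colonic crypts of mice labelled wild type, with 5 libraries in each of 3 groups. NL-shGFP had a normal diet and a normal liver and received AAV-shGFP, FL-shGFP had a CDAA diet and a fatty liver and received AAV-shGFP, and FL-shAlpl had a CDAA diet and a fatty liver and received AAV-shAlpl. CDAA is a common short name for a choline-deficient, amino acid-defined feed, and AAV-shAlpl is a virus that carries a short hairpin RNA against Alpl, the gene of an alkaline phosphatase. Diet and liver state moved together, every group carried a virus, AAV-shAlpl was given in fatty liver alone, and neither the cells the virus reached, the promoter, the age of the animals nor whether replicates were separate animals is given in the sources used here. If replicates were not separate animals, the adjusted p-values measure only the spread between these samples.

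Paneth cells sit at the base of small intestinal crypts and release antimicrobial proteins such as lysozyme and alpha-defensins beside the stem cells. The colon normally lacks Paneth cells, and its crypt base holds deep crypt secretory cells instead, which are known by Reg4 and Kit and give niche signals to the stem cells. Most of the genes here encode secreted products: Mptx1 and Mptx2 are mucosal pentraxins, Itln1 is intelectin, a lectin that binds microbial sugars, Ang4 is an antimicrobial ribonuclease, Lyz1 is the lysozyme of Paneth cells, Wfdc2 is a small secreted protein with a whey acidic protein core, and Reg4 is a secreted C-type lectin. Kit is the receptor for stem cell factor, Cd24a is a lipid-anchored surface glycoprotein, and Hepacam2 is an immunoglobulin-domain protein found in secretory cells.

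Upstream sequence is shown for the pentraxin pair and for Ang4 and Itln1, because these 4 genes were higher in every FL-shAlpl library than in any library of the other groups. That choice serves display only, since the share of all genes lying so was not taken. Sequences are from RefSeq on GRCm38.p6, run 5′ to 3′ on the strand of the gene and end before the start site, or before the first annotated exon where that comes earlier (Mptx2, 229 bases against 250 for the others). Mptx1 lies at chr1:174330268-174330517 on the plus strand, Mptx2 at chr1:173277778-173278006, Itln1 at chr1:171535295-171535544 and Ang4 at chr14:51773591-51773840, these 3 on the minus strand. Capitals mark a TCF/LEF core, here CTTTGAA.
Mptx1: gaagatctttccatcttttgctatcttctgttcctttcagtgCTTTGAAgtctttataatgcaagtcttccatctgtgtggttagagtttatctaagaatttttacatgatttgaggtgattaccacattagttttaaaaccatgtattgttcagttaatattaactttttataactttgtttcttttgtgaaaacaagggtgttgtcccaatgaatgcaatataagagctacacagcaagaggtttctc
Mptx2: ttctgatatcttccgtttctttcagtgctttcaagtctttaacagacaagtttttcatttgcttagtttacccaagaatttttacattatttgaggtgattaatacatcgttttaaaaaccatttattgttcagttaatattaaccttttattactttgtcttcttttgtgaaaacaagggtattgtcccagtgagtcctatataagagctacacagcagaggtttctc
Itln1: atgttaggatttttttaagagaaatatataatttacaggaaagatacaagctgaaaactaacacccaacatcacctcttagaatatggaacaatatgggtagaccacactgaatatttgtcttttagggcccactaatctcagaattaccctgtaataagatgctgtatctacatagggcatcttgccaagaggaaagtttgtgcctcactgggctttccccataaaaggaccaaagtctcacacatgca
Ang4: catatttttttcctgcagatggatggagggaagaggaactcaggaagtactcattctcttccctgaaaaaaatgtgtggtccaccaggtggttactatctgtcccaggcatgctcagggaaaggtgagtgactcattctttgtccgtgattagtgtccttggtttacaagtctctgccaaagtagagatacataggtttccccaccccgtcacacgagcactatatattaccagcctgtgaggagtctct
The Mptx1 and Mptx2 stretches were alike in 201 of 227 aligned bases (88.5%), with 25 bases unpaired. Of the 10 genes, 9 had a promoter entry, and the 250 bases before each start were searched on both strands. The motifs were the TCF/LEF core, CTTTGAT or CTTTGAA, and the E-box CAGCTG, which did not overlap anywhere in these stretches. The TCF/LEF core was found in Mptx1, as CTTTGAA 208 bases before the start, and in no other of the 9. In Mptx2, 6 of the 7 aligned bases were the same (ctttcaa). The E-box was found in Hepacam2 alone, 31 bases before the start. The searched stretches were not cut at annotated exons. In Hepacam2 such an exon begins after the first 151 of the 250 bases, so the E-box lies past its beginning. In Wfdc2 none (0) of the searched bases lies before such an exon, and in Kit the first 179 or 175 do, by start site. Among 32851 mouse promoters, 7.48% held the TCF/LEF core in either form and 13% held the E-box, and a match is a description of the letters only.

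Library totals ran from 33.3 M to 58.6 M counts. Mitochondrially encoded genes took 28.0% to 37.5% of NL-shGFP counts, 13.7% to 21.5% of those of FL-shGFP and 14.8% to 24.3% of those of FL-shAlpl. Markers of crypt epithelium (Epcam, Cdh1, Krt8, Krt19, Cdx2, Vil1) were abundant in every library, with summed levels from 5677 to 9773 CPM (counts scaled to the library total with TMM factors). FL-shAlpl replicate 1 stood apart: its 13 alpha-defensin genes summed to 596 CPM (35051 counts), against at most 0.212 across NL-shGFP, 2.55 across FL-shGFP and 3.78 across the other FL-shAlpl libraries. Alpha-defensins, which define Paneth cells, were thus at or near 0 in the other 14 libraries, where Lyz1 reached at most 14.9 CPM (FL-shAlpl replicate 5), and the label Paneth-like is not used below. Its summed level of 11 small intestinal enterocyte markers was 229 CPM, against 53.4 to 84.5 in FL-shAlpl replicates 2 to 5, while FL-shGFP ran from 198 to 587 and NL-shGFP from 19.0 to 66.4. Its 4 distal colon position genes (Hoxd12, Hoxd13, Hoxa13, Hoxb13) summed to 126.5 CPM, inside the range of 104 to 202 of the other FL-shAlpl libraries. Fitted values and list counts that include FL-shAlpl are therefore also given without that library. Fewer cells of a type and less RNA per cell cannot be told apart in bulk samples.

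**Figure D1:**
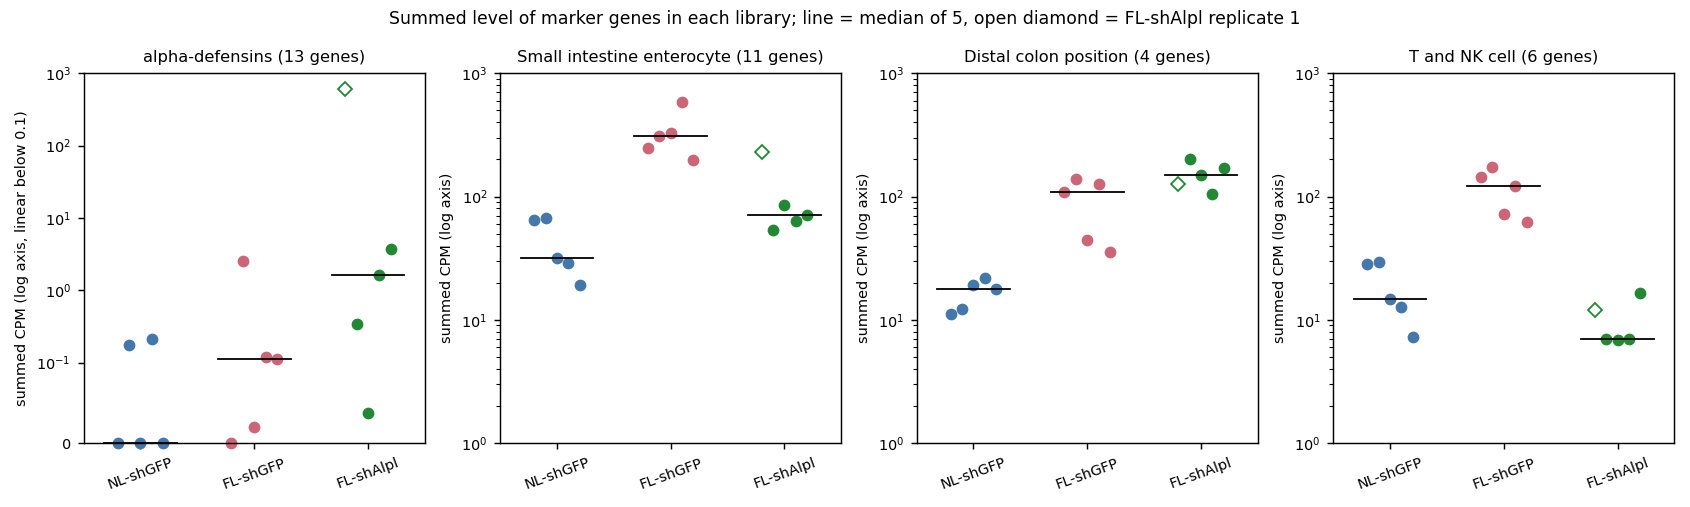
Summed CPM of 4 marker lists in each of the 15 libraries, on log axes (the alpha-defensin axis is linear below 0.1); the line is the median of 5 and the open diamond is FL-shAlpl replicate 1. That library holds 596 CPM of alpha-defensins against at most 3.78 in any other, distal colon position genes are lowest in NL-shGFP (11.1 to 21.8 CPM), and T and NK cell genes are highest in FL-shGFP (61.6 to 174.5 CPM).

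The 10 genes split in FL-shGFP against NL-shGFP and were mostly higher in FL-shAlpl. FL-shGFP against NL-shGFP addressed the diet with fatty liver: Mptx1 and Wfdc2 were called higher (2 of 10, against 25.1% of 17404 tested genes called higher), Reg4, Kit and Cd24a were called lower (3 of 10, against 21.6%), and the median log2 fold change of the 10 was -0.45 against -0.00 over all genes. FL-shAlpl against FL-shGFP addressed the Alpl hairpin in fatty liver: 8 of 10 were called higher, all but Kit and Hepacam2, against 18% of all genes, and 0 were called lower, against 17.9% (median 3.36 against -0.00). FL-shAlpl against NL-shGFP gave 6 higher, Mptx1, Mptx2, Itln1, Ang4, Lyz1 and Wfdc2, against 9.31%, and 2 lower, Kit and Cd24a, against 8.12% (median 2.98 against 0.05). Without FL-shAlpl replicate 1, 7 were called higher than in FL-shGFP (14% of 17684 genes) and 0 lower (15.1%), with Lyz1 lost and a median of 1.74. Against NL-shGFP the counts without it were 5 higher (11.2%) and 3 lower (8.74%), with Lyz1 lost and Reg4 added. A call is an edgeR quasi-likelihood test with Benjamini-Hochberg adjusted p below 0.05 over all tested genes. Mptx2 passed the filter on low counts only through FL-shAlpl, where it is high, so its calls are a description. Because the genes were picked from these libraries with results in view, and FL-shGFP and FL-shAlpl each enter 2 comparisons, nothing is read from these counts against the background. Values of several of the genes in FL-shGFP against NL-shGFP were known when they were picked. Their fold changes in that comparison are therefore given as a description with no p, and a call there only repeats the fit over all genes. The comparisons of FL-shAlpl reuse those libraries, and its replicate 1 was known to stand apart. Adjusted p printed for the 10 genes in them describe the fit and add no independent support. Genes of the lists below were named by whether they passed in FL-shGFP against NL-shGFP. Any adjusted p printed for them, there or in the comparisons that reuse its libraries, describes the fit and adds no support.

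**Figure D2:**
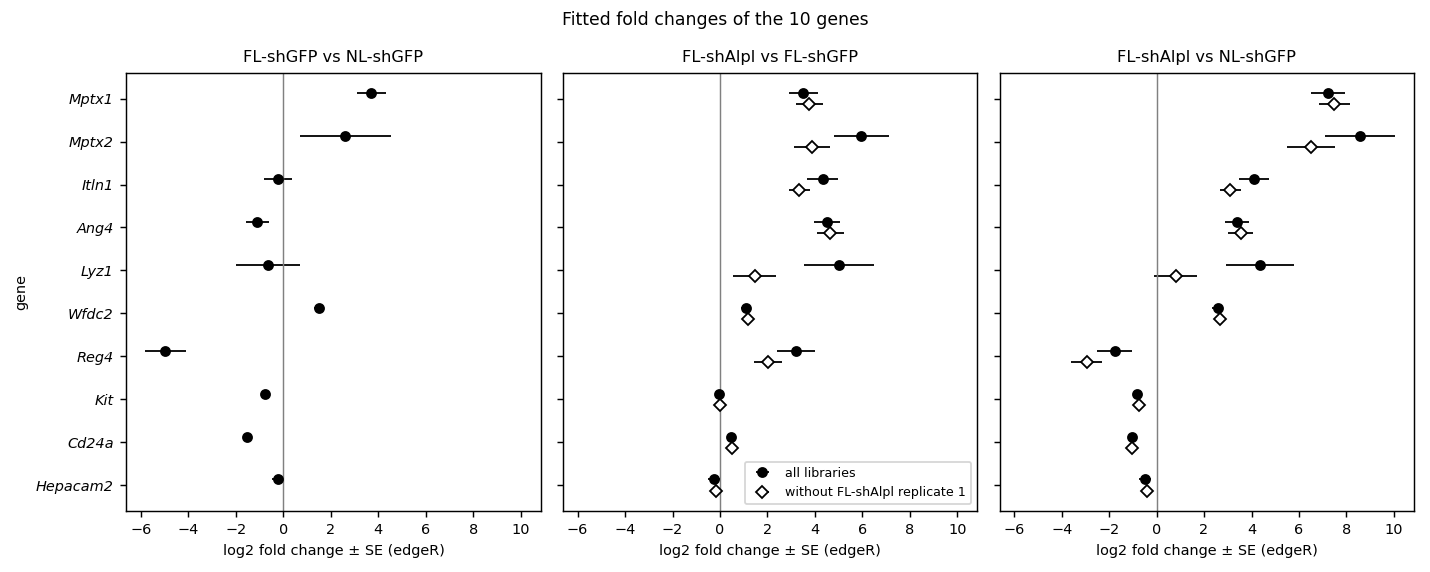
Fitted log2 fold change ± SE of each gene (rows) in the 3 comparisons (panels), with all libraries (filled circles) and without FL-shAlpl replicate 1 (open diamonds). Leaving that library out moves Mptx2, Itln1, Lyz1 and Reg4, and Lyz1 then comes to 1.46 against FL-shGFP and 0.81 against NL-shGFP.

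Mptx1 rose at each step. Its levels in replicates 1 to 5 were 19.2, 20.8, 22.6, 18.3 and 5.52 CPM in NL-shGFP, 355, 399, 100.3, 203 and 76.6 CPM in FL-shGFP, and 595.5, 3561, 2037, 1560 and 5174 CPM in FL-shAlpl. The 3 groups did not overlap, NL-shGFP replicate 5 was lowest of all, and FL-shAlpl replicate 1 was the lowest of its group. The fold change was 3.72 ± 0.62 on the log2 scale (± SE) from NL-shGFP to FL-shGFP. It was 3.51 ± 0.61 from FL-shGFP to FL-shAlpl (edgeR adjusted p = 0.000917, higher in 5 of 5 libraries) and 7.23 ± 0.72 from NL-shGFP to FL-shAlpl (edgeR adjusted p = 4.31e-05). Without FL-shAlpl replicate 1 the last values were 3.77 and 7.48.

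Mptx2 was nearly absent from NL-shGFP and FL-shGFP and was counted in every FL-shAlpl library. NL-shGFP held 2 counts in all, both in replicate 1. FL-shGFP held 7, 7, 0, 5 and 0 counts, and FL-shAlpl held 1288, 87, 61, 34 and 72 counts in replicates 1 to 5, which is 21.9 CPM in replicate 1 and 0.708 to 1.78 CPM in the others. All 5 FL-shAlpl libraries lay above every other library, and replicate 1 was far above the rest. The ratio of FL-shAlpl to FL-shGFP was 77.2 (95% counting interval 49.3 to 129), and 16.3 (10.2 to 27.5) without replicate 1. The fitted values were 5.96 ± 1.15, and 3.88 ± 0.77 without replicate 1. They are a description with no p, because Mptx2 passed the filter on low counts only through FL-shAlpl, where it is high. Against NL-shGFP the ratio was 582 (161 to 4813), and 122.5 (33.6 to 1017) without replicate 1. The rise passed against NL-shGFP with edgeR adjusted p = 0.00149, and 0.00068 without that library. FL-shGFP against NL-shGFP gave 19 counts against 2, a ratio of 7.54 (1.82 to 66.8) that was not called. These intervals take each count as 1 molecule and cover counting error only, although 72.4% to 77.2% of counts from 1 to 12 in each library were even.

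In the fatty liver groups the Mptx2 counts were a small share of the Mptx1 counts in every library but 1. Of the 750 stretches of 50 bases in the Mptx1 transcript (GENCODE M21), 134 (17.9%) also occur in Mptx2, so reads of one can match the other. Mptx2 made up 0.0423%, 0.0568%, 0.0454% and 0.0344% of the counts of the pair in FL-shAlpl replicates 2 to 5. In FL-shGFP it made up 0.0424%, 0.0356% and 0.0731% in replicates 1, 2 and 4, and 0 of 4978 and of 4068 counts in replicates 3 and 5, which allow up to 0.0741% and 0.0906% (exact binomial, 95%). FL-shAlpl replicate 1 stood alone at 3.55% (3.36% to 3.74%). Mptx1 itself ran from 4068 to 209234 counts in the fatty liver libraries. NL-shGFP replicate 1 was at 0.312% (0.0377% to 1.12%), from 2 counts, and the other NL-shGFP libraries held 0 with upper limits from 0.440% to 1.88%, too few Mptx1 counts to place the share. Whether reads of Mptx1 had been counted on Mptx2 was not tested.

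**Figure D3:**
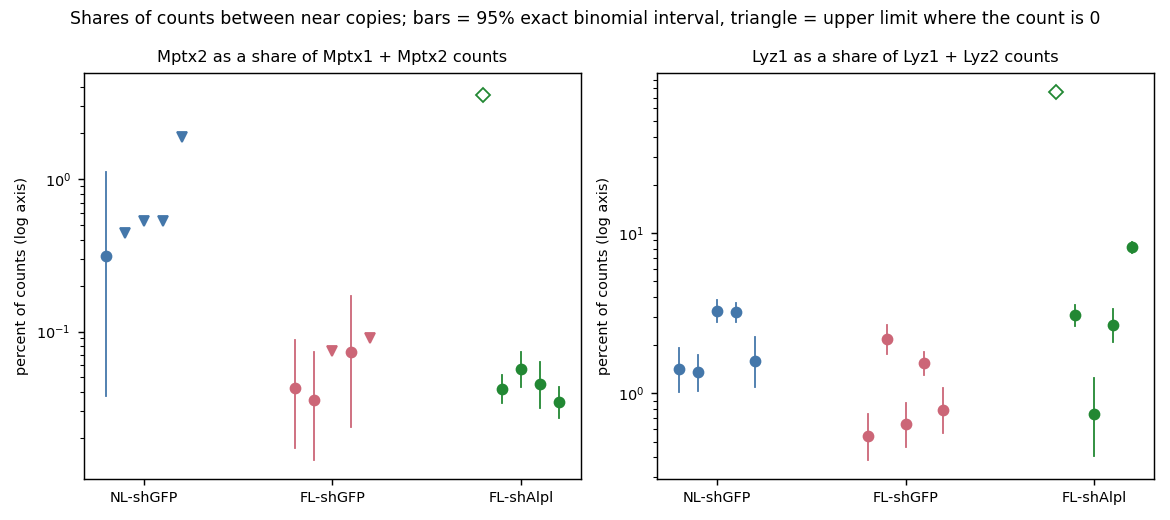
Left, Mptx2 as a percentage of Mptx1 plus Mptx2 counts, and right, Lyz1 as a percentage of Lyz1 plus Lyz2 counts, in each library on log axes, with 95% exact binomial intervals; triangles are upper limits where no count was found and the open diamond is FL-shAlpl replicate 1. FL-shAlpl replicate 1 is at 3.55% and 75.6%, and FL-shAlpl replicates 2 to 5 lie between 0.0344% and 0.0568% on the left and between 0.744% and 8.16% on the right.

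Itln1 was low in both shGFP groups and higher in FL-shAlpl. NL-shGFP held 3.03, 4.04, 1.64, 1.43 and 1.02 CPM, FL-shGFP 2, 3.73, 1.33, 0.774 and 1.64 CPM, and FL-shAlpl 114, 15.7, 20.1, 19.7 and 21.9 CPM. Both shGFP groups overlapped, all FL-shAlpl libraries lay above them, and 4 of the 5 were close to each other (19.4 ± 2.64 CPM, SD, n = 4). Itln1 rose by 4.33 ± 0.65 over FL-shGFP (edgeR adjusted p = 0.000348) and by 4.10 ± 0.64 over NL-shGFP (edgeR adjusted p = 0.000847). Without FL-shAlpl replicate 1 it rose by 3.34 ± 0.43 and 3.11 ± 0.43, with edgeR adjusted p of 0.000219 and 0.000327. FL-shGFP against NL-shGFP was -0.23 ± 0.60 and was not called.

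Ang4 rose in every FL-shAlpl library. NL-shGFP held 43.4, 48.6, 19.4, 19.6 and 16.5 CPM, FL-shGFP 23.0, 26.9, 3.95, 8.33 and 6.31 CPM, and FL-shAlpl 169, 375, 278, 298 and 427 CPM. NL-shGFP and FL-shGFP overlapped, and FL-shAlpl replicate 1 was the lowest of its group yet above both. The rise was 4.5 ± 0.55 over FL-shGFP (edgeR adjusted p = 0.000104) and 3.39 ± 0.52 over NL-shGFP (edgeR adjusted p = 0.000735), or 4.65 and 3.55 without FL-shAlpl replicate 1. FL-shGFP against NL-shGFP was -1.11 ± 0.49 and was not called, although 3 of 5 FL-shGFP libraries lay below every NL-shGFP library. Of its 50-base stretches, 4.70% also occur in Ang5 or Ang2.

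Lyz1 was high in 1 library only. NL-shGFP held 1.26, 1.47, 5.04, 5.16 and 0.910 CPM, FL-shGFP 0.819, 1.91, 0.826, 4.70 and 0.735 CPM, and FL-shAlpl 263, 2.86, 0.266, 1.48 and 14.9 CPM. The groups overlapped, with FL-shAlpl replicate 3 the lowest of all 15 libraries and replicate 1 the highest. The call over FL-shGFP (5.01 ± 1.47, edgeR adjusted p = 0.0171) and that over NL-shGFP (4.36 ± 1.42, edgeR adjusted p = 0.0468) rested on replicate 1. Without it the values were 1.46 ± 0.92 (edgeR adjusted p = 0.242) and 0.81 ± 0.91 (edgeR adjusted p = 0.587). Without FL-shGFP replicate 4, the highest of that group, the value over FL-shGFP was 5.72. Lyz2, the lysozyme of myeloid cells, shares 16.1% of the 50-base stretches of Lyz1. Lyz1 made up 75.6% of the counts of both genes in FL-shAlpl replicate 1 and 0.539% to 8.16% in the other libraries, and Lyz2 itself did not pass in any of the 3 comparisons. Which reads were shared between the copies was not tested.

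Wfdc2 was tight in NL-shGFP (coefficient of variation 7.25%), and higher and more spread in FL-shGFP (31.7%) and FL-shAlpl (25.1%). NL-shGFP held 23.2, 27.6, 26.7, 26.1 and 24.0 CPM, FL-shGFP 82.7, 103, 61.7, 65.5 and 43.7 CPM, and FL-shAlpl 103, 177, 169, 118.5 and 189 CPM. NL-shGFP lay below all other libraries, and FL-shAlpl overlapped FL-shGFP only through its replicate 1. The fold change was 1.48 ± 0.21 from NL-shGFP to FL-shGFP, 1.08 ± 0.20 from there to FL-shAlpl (edgeR adjusted p = 0.00143) and 2.57 ± 0.21 from NL-shGFP to FL-shAlpl (edgeR adjusted p = 1.17e-05). Without FL-shAlpl replicate 1 the last values were 1.20 and 2.68.

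**Figure D4:**
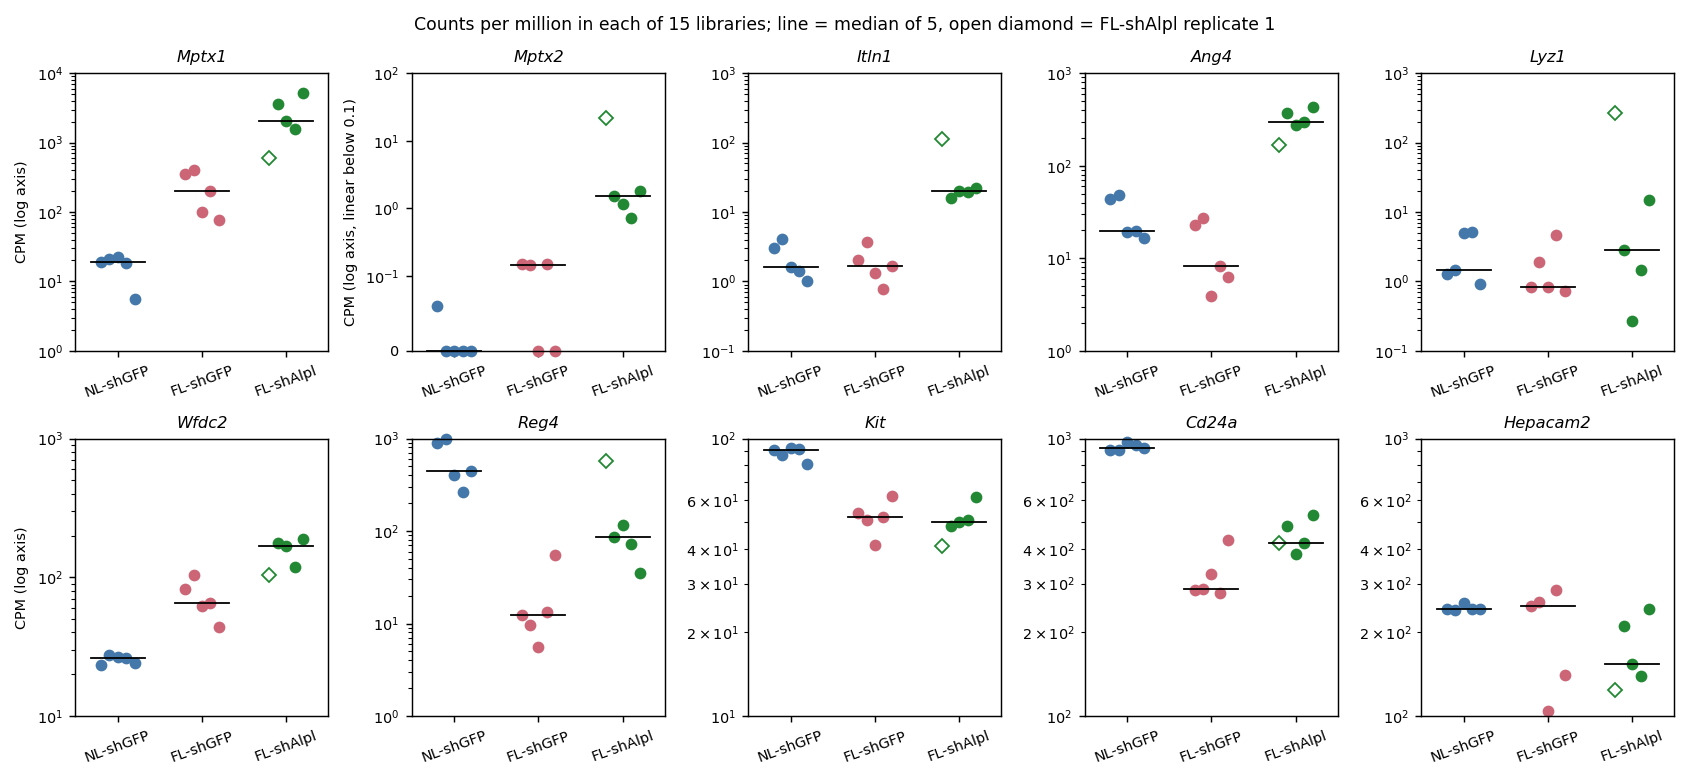
CPM of each gene in each library (points) on log axes, with the group median (line) and FL-shAlpl replicate 1 as an open diamond; the Mptx2 axis is linear below 0.1. Mptx1 rises over the 3 groups without overlap, Ang4 and Itln1 stand above both shGFP groups in all 5 FL-shAlpl libraries, Reg4 is lowest in FL-shGFP, and Kit and Cd24a are highest in NL-shGFP.

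Reg4, the gene by which deep crypt secretory cells are known, was highest in NL-shGFP and lowest in FL-shGFP. NL-shGFP held 906, 985.5, 400.1, 264 and 447 CPM, FL-shGFP 12.4, 9.73, 5.58, 13.2 and 54.7 CPM, and FL-shAlpl 569, 85.8, 115, 73.2 and 35.6 CPM. All FL-shGFP libraries lay below every NL-shGFP library. FL-shAlpl overlapped FL-shGFP through FL-shGFP replicate 5 and its own replicate 5, and overlapped NL-shGFP through its replicate 1 alone. From NL-shGFP to FL-shGFP the fold change was -4.97 ± 0.85, and -5.88 without FL-shGFP replicate 5. From FL-shGFP to FL-shAlpl Reg4 rose by 3.20 ± 0.79 (edgeR adjusted p = 0.00684), by 4.11 without FL-shGFP replicate 5, and by 2.02 ± 0.60 without FL-shAlpl replicate 1 (edgeR adjusted p = 0.0234). Against NL-shGFP, FL-shAlpl gave -1.77 ± 0.74 and did not pass (edgeR adjusted p = 0.112). Without FL-shAlpl replicate 1 Reg4 was lower there than in NL-shGFP (-2.95 ± 0.65, edgeR adjusted p = 0.00679), in 4 of 4 libraries.

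Kit, the other gene used to mark these cells, was lower in both fatty liver groups than in NL-shGFP. NL-shGFP held 91.2, 87.2, 92.3, 91.3 and 81.3 CPM, FL-shGFP 54.1, 51.0, 41.4, 52.2 and 62.3 CPM, and FL-shAlpl 41.2, 48.5, 50.2, 51.0 and 61.4 CPM. Both fatty liver groups lay below every NL-shGFP library and overlapped each other. The fold change was -0.77 ± 0.11 from NL-shGFP to FL-shGFP, and Kit fell by 0.81 ± 0.11 from NL-shGFP to FL-shAlpl (edgeR adjusted p = 0.000282). FL-shAlpl against FL-shGFP was -0.05 ± 0.11 (edgeR adjusted p = 0.763). The FL-shAlpl values against NL-shGFP and against FL-shGFP were -0.75 (edgeR adjusted p = 0.000505) and 0.02 (edgeR adjusted p = 0.902) with FL-shAlpl replicate 1 left out. Mast cells also express Kit: the summed level of 8 mast cell markers was 12.1 to 18.0 CPM in NL-shGFP, 19.3 to 35.6 across FL-shGFP, 8.56 to 18.6 in FL-shAlpl replicates 2 to 5 and 34.8 in replicate 1. Interstitial cells of Cajal express Kit too, and the 6 markers of these cells and smooth muscle summed to 29.3 to 38.7, 19.0 to 32.3 and 29.1 to 44.5 CPM. Of its 5 tested genes, 3 rose and 1 fell in FL-shGFP (25.1% and 21.6% of all tested genes). From there to FL-shAlpl 1 rose and 3 fell (18% and 17.9%). Without FL-shAlpl replicate 1, 6 genes were tested, and 1 rose and 2 fell (14% and 15.1%). Ano1 (means 31.9, 17.6 and 33.0 CPM) went against the other called genes. It fell by 0.86 ± 0.16 in FL-shGFP (edgeR adjusted p = 0.000645) and rose by 0.90 ± 0.16 from there to FL-shAlpl (edgeR adjusted p = 0.000918, or 0.94 ± 0.17 without FL-shAlpl replicate 1). Myh11 had means of 0.471, 3.49 and 0.326 CPM, Des 0.321, 1.77 and 0.351 CPM, and Actg2 0.128, 0.758 and 0.181 CPM. The part of either cell type in the Kit values was not tested.

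Cd24a fell in FL-shGFP and lay between the other groups in FL-shAlpl. NL-shGFP held 907.5, 907, 970.1, 948 and 926 CPM, FL-shGFP 285, 286, 324, 278 and 432 CPM, and FL-shAlpl 419, 482, 383.5, 419 and 530.2 CPM. NL-shGFP lay above all other libraries, and FL-shAlpl overlapped FL-shGFP only through FL-shGFP replicate 5. The fold change was -1.54 ± 0.13 from NL-shGFP to FL-shGFP. Cd24a rose by 0.48 ± 0.13 from FL-shGFP to FL-shAlpl (edgeR adjusted p = 0.0119, 0.0165 without FL-shAlpl replicate 1) and fell by 1.06 ± 0.13 from NL-shGFP to FL-shAlpl (edgeR adjusted p = 0.000146). These were 0.50 and -1.04 without FL-shAlpl replicate 1.

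Hepacam2 was not called in any comparison. NL-shGFP held 242, 240.2, 254.7, 243 and 242.5 CPM, FL-shGFP 250, 258.5, 104, 285 and 141 CPM, and FL-shAlpl 124, 210.4, 153.5, 139 and 243 CPM. NL-shGFP was tight, FL-shGFP replicates 3 and 5 were low, and the groups overlapped. The values were -0.24 ± 0.24 in FL-shGFP against NL-shGFP, -0.26 ± 0.24 in FL-shAlpl against FL-shGFP (edgeR adjusted p = 0.434) and -0.49 ± 0.24 in FL-shAlpl against NL-shGFP (edgeR adjusted p = 0.182). The last values were -0.15 and -0.39 without FL-shAlpl replicate 1 (edgeR adjusted p = 0.681 and 0.308).

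Per transcript length, the leading gene differed between the groups. FPKM, the deposited scale that divides by length, put Reg4 (567 ± 308 FPKM, SD, n = 5) and Cd24a (346 ± 18.6 FPKM) at the top of NL-shGFP, overlapping each other and above all the rest. Hepacam2 (39.9 ± 2.16 FPKM) and Ang4 (39.9 ± 20.7 FPKM) followed and overlapped, then Wfdc2, Mptx1 and Kit, with Lyz1 and Itln1 near 2 FPKM and Mptx2 last. In FL-shGFP, Mptx1 (274 ± 170.1 FPKM) and Cd24a (125 ± 36.1 FPKM) led and overlapped, and Reg4, behind Wfdc2 and Hepacam2, was at 19.5 ± 22.4 FPKM. In FL-shAlpl, Mptx1 was above every other gene at 3290 ± 2089 FPKM and Ang4 was next at 453 ± 119 FPKM, overlapping Reg4 (188 ± 242 FPKM). Without replicate 1, Ang4 (500.0 ± 62.8 FPKM) stood clear of Cd24a (181.5 ± 12.3 FPKM), Wfdc2 and Reg4 (80.5 ± 38.8 FPKM).

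**Figure D5:**
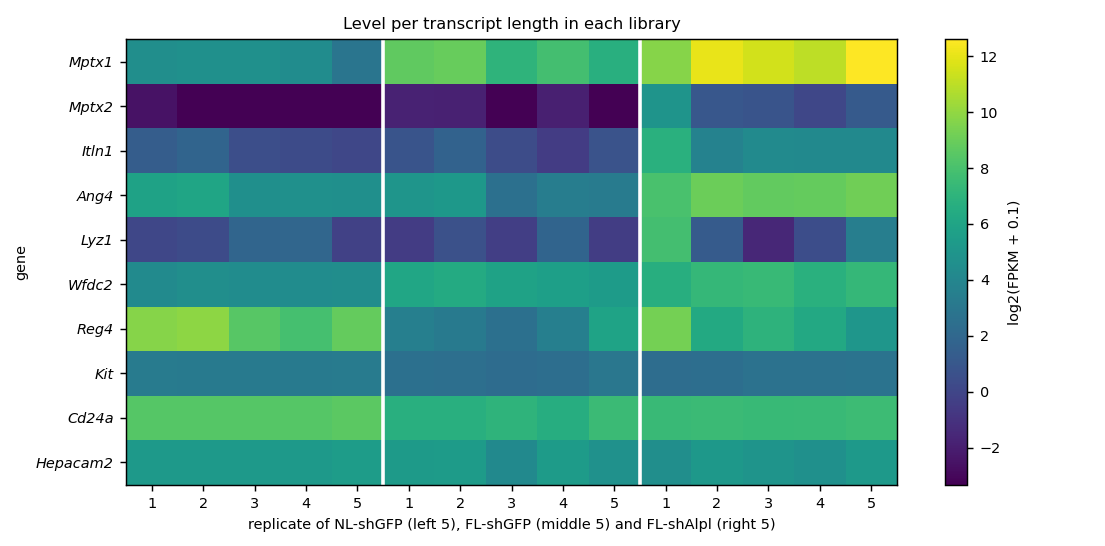
Level of each gene (rows) in each library (columns) as log2(FPKM + 0.1), in blocks of 5 for NL-shGFP, FL-shGFP and FL-shAlpl. Mptx1 is the brightest row in FL-shAlpl (824.7 to 6224 FPKM), Reg4 and Cd24a in NL-shGFP, and in FL-shAlpl replicate 1 Lyz1 reaches 230.4 FPKM and Mptx2 30.5 FPKM.

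None of the other tested Paneth granule genes rose in FL-shAlpl over FL-shGFP. Of 20 genes in that list 19 were in the table and 6 passed the filter, none of them an alpha-defensin. In FL-shGFP against NL-shGFP 3 rose and 1 fell (25.1% and 21.6% of all tested genes), in FL-shAlpl against FL-shGFP 0 rose and 2 fell (18% and 17.9%), and in FL-shAlpl against NL-shGFP 0 rose and 1 fell (9.31% and 8.12%). Their median fold changes were 0.17, -0.33 and -0.12, and without FL-shAlpl replicate 1 the last comparisons gave 0 and 2, and 0 and 2. The lectins Reg3a, Reg3b and Reg3g rose in FL-shGFP (2.49 ± 0.42, 1.26 ± 0.29 and 1.02 ± 0.38, edgeR adjusted p = 0.000313, 0.00283 and 0.0363). Reg3b then fell in FL-shAlpl by 1.03 ± 0.29 (edgeR adjusted p = 0.0129), from a mean of 9450 CPM to 4620 CPM. Nod2, a sensor of bacterial cell wall, fell by 0.73 ± 0.20 in FL-shGFP (edgeR adjusted p = 0.00694) and was lower in FL-shAlpl than in NL-shGFP as well. Mmp7, the protease that activates defensins in mouse Paneth cells, averaged 12.9 CPM across NL-shGFP, 7.98 across FL-shGFP and 8.88 across FL-shAlpl, where replicate 1 held 31.5 CPM. It passed in none of the 3 comparisons with all libraries, but without that one its FL-shAlpl mean was 3.22 CPM and it was lower than in NL-shGFP (-2 ± 0.67, edgeR adjusted p = 0.0482).

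Genes of the deep crypt niche and of the secretory lineage were mostly lower in FL-shAlpl than in NL-shGFP. Of 11 tested niche and deep crypt genes, 3 rose and 5 fell in FL-shGFP against NL-shGFP, 0 rose and 3 fell in FL-shAlpl against FL-shGFP, and 2 rose and 7 fell in FL-shAlpl against NL-shGFP, with medians of -0.29, -0.21 and -0.86. The counts in FL-shAlpl were the same without its replicate 1. Muc2, Clca1, Tff3, Spink4, Agr2 and Retnlb of this list are also in the goblet cell list. In FL-shAlpl against NL-shGFP, Clca1 and Tff3 were the genes that rose. Muc2, Spink4, Agr2 and Retnlb fell there, as did Dll1, Egf and Cd44. The shares of all genes given for the Paneth granule list hold for these lists too. The Notch ligand Dll1 had means of 16.5 CPM in NL-shGFP, 8.18 in FL-shGFP (-1.01 ± 0.17, edgeR adjusted p = 0.000255) and 8.64 in FL-shAlpl. The disulphide isomerase Agr2 fell by 1.01 ± 0.15 in FL-shGFP (edgeR adjusted p = 0.000113), while the growth factor Tgfa (0.94 ± 0.14, edgeR adjusted p = 0.000113) and the trefoil peptide Tff3 (2.37 ± 0.43, edgeR adjusted p = 0.000561) rose. Muc2, the main gel-forming mucin, was -0.29 ± 0.18 in FL-shGFP (edgeR adjusted p = 0.189) and fell by 0.70 ± 0.18 from there to FL-shAlpl (edgeR adjusted p = 0.00797). Of 10 transcription factors of the secretory lineage, 0 rose and 6 fell in FL-shGFP, 2 rose and 3 fell in FL-shAlpl against FL-shGFP, near the shares of all genes (18% and 17.9%), and 0 rose and 7 fell in FL-shAlpl against NL-shGFP. Their medians were -0.47, -0.04 and -0.69, and without FL-shAlpl replicate 1 the counts in FL-shAlpl were 1 and 3, and 0 and 7. Creb3l4, Creb3l1, Foxa1 and Sox9 fell in FL-shGFP by 1.09 ± 0.14, 0.90 ± 0.15, 0.45 ± 0.08 and 0.68 ± 0.15, with edgeR adjusted p of at most 0.00173. Spdef, which drives goblet and Paneth maturation, fell from FL-shGFP to FL-shAlpl (-0.76 ± 0.19, edgeR adjusted p = 0.0074).

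Partners and relatives of the 10 genes were also read. Kitl, which encodes stem cell factor, the ligand of Kit, had means of 70.4 CPM in NL-shGFP, 33.6 in FL-shGFP (-1.07 ± 0.16, edgeR adjusted p = 0.000132) and 88.3 in FL-shAlpl (1.40 ± 0.16 over FL-shGFP, edgeR adjusted p = 6.9e-05); the Kit means were 88.7, 52.2 and 50.5 CPM. Of the 6 tested relatives and partners, 0 rose and 3 fell in FL-shGFP, 2 rose and 0 fell in FL-shAlpl against FL-shGFP, and 0 rose and 1 fell in FL-shAlpl against NL-shGFP (medians -0.37, -0.10 and -0.34). The counts in FL-shAlpl without its replicate 1 were 2 and 1, and 0 and 0. Of all tested genes, 25.1% rose and 21.6% fell, 18% and 17.9%, and 9.31% and 8.12% in the 3 comparisons. Without that library the last were 14% and 15.1%, and 11.2% and 8.74%. These shares hold for the stem cell and Wnt genes below too. The intestinal identity factor Cdx2 fell in FL-shGFP (-0.69 ± 0.12, edgeR adjusted p = 0.000493) and rose in FL-shAlpl over it (0.38 ± 0.12, edgeR adjusted p = 0.0245). Ang, the related ribonuclease, fell by 0.79 ± 0.15 in FL-shGFP (edgeR adjusted p = 0.000828) and did not pass in FL-shAlpl against FL-shGFP (0.30 ± 0.15, edgeR adjusted p = 0.132). Of 9 stem cell and Wnt genes, 0 rose and 9 fell in FL-shGFP and 8 rose and 0 fell in FL-shAlpl against FL-shGFP, or 5 and 0 without FL-shAlpl replicate 1. Against NL-shGFP, 0 of these rose and 2 fell in FL-shAlpl, or 0 and 3 without it, and the medians with all libraries were -2.003, 1.33 and -0.56 in the 3 comparisons. Axin2, a feedback target of Wnt signals, averaged 25.6 CPM across NL-shGFP, 1.24 across FL-shGFP and 17.3 across FL-shAlpl.

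Genes of other cell types and of position along the colon moved between the same groups. The 4 distal colon position genes summed to 11.1 to 21.8 CPM in NL-shGFP, 35.4 to 137.5 across FL-shGFP and 104 to 202 in FL-shAlpl. Hoxb13 rose by 3.23 ± 0.36 from NL-shGFP to FL-shGFP (edgeR adjusted p = 2.14e-05) and by 3.93 ± 0.37 from NL-shGFP to FL-shAlpl (edgeR adjusted p = 3.04e-05). T and NK cell markers (6 genes) summed to 7.25 to 29.4 CPM in NL-shGFP, 61.6 to 174.5 across FL-shGFP and 6.83 to 16.5 in FL-shAlpl. All 6 rose in FL-shGFP (25.1% of all tested genes) and fell again in FL-shAlpl (17.9%). Without FL-shAlpl replicate 1 all 6 fell too (15.1%). Surface colonocyte markers (10 genes) summed to 4825 to 11420 CPM in NL-shGFP, 11390 to 29590 across FL-shGFP and 6525 to 11250 in FL-shAlpl, while goblet cell markers (10 genes) ran from 26840 to 32180, from 24890 to 54470 and from 14130 to 33280 CPM. The part of these in the values of the 10 genes was not tested.

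Among the 10 genes, Mptx1 and Wfdc2 went most alike over the libraries. Likeness is Pearson's r of log2 CPM (prior count 2) over the same 15 libraries. It was taken among 12333 genes of at least 1 mean CPM, leaving out predicted Gm or Rik names. It is a description, since all points share library, depth and group. Mptx1 and Wfdc2 were each other's closest gene (r = 0.984), and r was 0.846 for their deviations from the group means. Sycn, which encodes syncollin, a protein of secretory granules, came next for both (0.971 and 0.978). For deviations from the group means its r was higher than that of the pair, at 0.92 with Mptx1 and 0.919 with Wfdc2. Mptx2 had Itln1 as its second closest gene (0.915, or 0.859 without FL-shAlpl replicate 1, and 0.663 for deviations from the group means). Ang4 was closest to the pyrophosphatase gene Ppa1 (0.942). For Lyz1 the closest gene was Minpp1 (0.931, or 0.801 without FL-shAlpl replicate 1). Reg4 went most like Cnn3 (0.952), Kit like Copz2 (0.980) and the secretory lineage factor Creb3l4 (0.976), Cd24a like Selenom (0.991) and Hepacam2 like Tnfaip8 (0.925).

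Mptx1, Mptx2 and Itln1 lie on chromosome 1, Lyz1 and Cd24a on chromosome 10, and the others on chromosomes 14 (Ang4), 2 (Wfdc2), 3 (Reg4), 5 (Kit) and 6 (Hepacam2). No annotated gene overlaps any of the 10.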

How the data were processed

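RNA of colonic crypts was column-purified and enriched for mRNA per the labels' protocols. The authors deposited whole-number counts per gene and the FPKM made from them; HISAT2 was used per the submitters' processing notes (version not given), and the sources used here name no counting tool, build, annotation or strand setting. Reads shared by near copies may therefore have been split or dropped.

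The 10 genes and all lists were chosen with earlier results of these data known, so the adjusted p of all these genes, in every comparison, are a description. The 17404 genes kept by filterByExpr (15535 were not) entered a single quasi-likelihood model with 1 mean per group over all 15 libraries, in edgeR 4.0.16 (R 4.3.3, robust fit, TMM scaling, 12 residual degrees of freedom). Tests were two-sided with Benjamini-Hochberg adjustment at 0.05. The biological coefficient of variation was 30.2%, so the spread between samples limits most genes rather than depth. Within-group pairs of libraries were compared by chi-square over genes with at least 20 counts, halved because most small counts were even. NL-shGFP replicates 3 and 4 came closest (median 0.760, against 0.455 for sampling noise alone), and all were kept as separate samples.

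CPM are TMM-scaled. A ± beside CPM or FPKM is the SD, and beside a log2 fold change the standard error. Named genes were all 10, up to 4 of each list that passed in FL-shGFP against NL-shGFP by p with up to 2 abundant ones that did not, and the 3 most alike genes per gene; the text prints part of these. A gene in 2 lists counts in both. Some results are not reported here. Scaling by RLE, upper quartile or totals, other filters, DESeq2 1.42.0, limma 3.58.1 (voom, and trend on log2(FPKM + 0.1)), 2 groups only, a replicate block, close libraries summed, no mitochondrial genes and each library left out were tried. The code was tested on simulated data. Figures used Python 3.11.15 and matplotlib 3.10.9.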

Additional observations from a re-analysis of the deposited data

Results flagged for a closer look

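In groups of 5, the highest or lowest library was set apart where its gap to the next exceeded 0.71 of the group's range (Dixon's 95% value). That held for 8 of the 30 gene and group pairs. Chance sets apart about 1 in 20 groups, but FL-shAlpl replicate 1, which gave 4 of the 8, was known to stand apart when the genes were chosen, so the number is a description only. FL-shAlpl replicate 1 was far above its group in Mptx2 (21.9 CPM, next 1.78), Itln1 (114 CPM, next 21.9), Lyz1 (263 CPM, next 14.9) and Reg4 (569 CPM, next 115). These are the 4 genes whose fold changes moved most without it, and the same library held 596 CPM of alpha-defensins. FL-shGFP replicate 5 was above its group in Reg4 (54.7 CPM, next 13.2). NL-shGFP replicate 5 was below its group in Mptx1 (5.52 CPM, next 18.3). Mptx2 in NL-shGFP replicate 1 was 0.0600 CPM, which is 2 counts against 0 in the other 4 libraries. Hepacam2 in NL-shGFP replicate 3 was 254.7 CPM (next 243), a small gap in a narrow group.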

How the results depend on the processing

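With each library left out in turn, 2 of the 10 genes were higher and 3 to 4 lower in FL-shGFP against NL-shGFP, 7 to 8 higher and 0 lower in FL-shAlpl against FL-shGFP, and 5 to 6 higher and 2 to 3 lower in FL-shAlpl against NL-shGFP. All genes called ran from 6841 to 8816 (8128 with all libraries), 4635 to 7158 (6261) and 1979 to 3523 (3035). The lowest of the last came without FL-shAlpl replicate 2. In that comparison voom called 5302 and summing NL-shGFP replicates 1 with 2 and 3 with 4 gave 1340. Kit in FL-shAlpl against FL-shGFP turned to 0.027 with totals alone, 0.038 with limma-trend, 0.026 without FL-shGFP replicate 5 and 0.021 without FL-shAlpl replicate 1 (range -0.12 to 0.026 with each library left out), and Itln1 in FL-shGFP against NL-shGFP to 0.10 without NL-shGFP replicate 2 (range -0.63 to 0.10), none called; the cause was not tested. The Ang4 value in FL-shGFP against NL-shGFP, not called in the reported fit, was called lower with DESeq2, limma-trend, the block and without FL-shGFP replicate 1 or 2. Lyz1 over NL-shGFP failed in most settings (edgeR adjusted p = 0.136 with no filter, 0.0754 to 0.1 without 1 NL-shGFP library). DESeq2 gave no adjusted p for 2 of the genes. Higher calls were 65.8% of all calls with totals alone against 53.8% in FL-shGFP against NL-shGFP, and 75.0% (totals), 71.3% (limma-trend) and 42.3% (upper quartile) against 53.4% in FL-shAlpl against NL-shGFP, where totals moved the median of all genes to 0.19. With a replicate block, 2 were higher and 4 lower, 7 and 0, and 5 and 2 in the 3 comparisons; same-numbered libraries had correlated deviations from -0.35 to 0.33, so the numbers were not taken as pairs. The planned fit with all 15 libraries as separate samples is the one reported.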
